A study of Mus musculus with 12 samples.

Results

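The genes described here carry fatty acids into heart muscle cells and burn or store them. They are 43 named genes in 5 steps: 6 for uptake, 6 for activation to and release from coenzyme A (CoA), 8 for the carnitine shuttle, 16 for mitochondrial beta-oxidation and 7 for storage and lipolysis. Members were found by name, from a list drawn up with earlier results of these data known, and all 43 had a row among the 13552 genes of the deposited table. A gene was tested if it reached 1 RPKM (reads on a gene, scaled to its exon length in kilobases and to library depth) in at least 3 mice, which 11240 genes did. Of the members, 42 passed. Acsl3, a long-chain acyl-CoA synthetase, did not, with a mean of 0.536 ± 0.0823 RPKM (SD, n = 3) in WT sham hearts and 0.733 ± 0.264 in KI TAC hearts.

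RNA was sequenced from hearts of 12 male mice of the C57BL/6 strain, aged 8 to 10 weeks, 9 h after surgery. Transverse aortic constriction (TAC) ties a narrowing around the aorta so that the heart has to eject blood against a higher load, and sham mice were operated on with no such narrowing. Wild-type mice (WT) and homozygous Bcl-xL-S14A knock-in mice (KI) each had a sham and a TAC group of 3 mice: WT sham (mice 1, 2 and 3), WT TAC (7, 9 and 10), KI sham (1, 2 and 3) and KI TAC (5, 6 and 7). In KI mice, codon 14 of Bcl-xL, an anti-apoptotic protein of the Bcl-2 family, encodes alanine in place of serine in every cell of the body, so that residue cannot be phosphorylated. The knock-in line was made in R1 embryonic stem cells, its selection cassette was removed with a CMV-Cre transgene, and it was backcrossed to C57BL/6J for more than 8 generations. WT mice were bought from a supplier, and the 2 genotypes were not described as littermates. The comparisons asked how the genes differed between TAC and sham in each genotype, and between genotypes after each operation. Values per gene do not show the substitution, so the genotype labels were not checked here.

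The heart takes most of its energy from long-chain fatty acids. Lipoprotein lipase releases them from triglyceride in the capillaries, transporters and binding proteins bring them into the cardiomyocyte, and acyl-CoA synthetases couple them to CoA. The acyl group then enters the mitochondrion on carnitine, under control of malonyl-CoA, and is cut down by repeated rounds of dehydrogenation, hydration, dehydrogenation and thiolysis. What is not burned is stored in droplets as triglyceride and released again by lipases. Nuclear receptors of the PPAR and ERR families are known to act on many of these genes, and they bind DNA at copies of the hexamer AGGTCA.

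Upstream sequence is shown for 5 members whose values are described below, 2 without that hexamer and 3 with it. Sequences are from RefSeq (GRCm38.p6), lie upstream of the annotated start site, read 5′ to 3′ on the strand of the gene, and have each AGGTCA or its reverse complement in capitals.
Slc22a5, minus strand, chr11:53891704-53891953: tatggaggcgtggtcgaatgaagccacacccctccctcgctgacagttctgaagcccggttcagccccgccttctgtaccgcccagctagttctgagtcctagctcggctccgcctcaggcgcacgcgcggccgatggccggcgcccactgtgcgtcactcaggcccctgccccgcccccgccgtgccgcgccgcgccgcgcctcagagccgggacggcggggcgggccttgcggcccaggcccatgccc
Hadh, minus strand, chr3:131272102-131272351: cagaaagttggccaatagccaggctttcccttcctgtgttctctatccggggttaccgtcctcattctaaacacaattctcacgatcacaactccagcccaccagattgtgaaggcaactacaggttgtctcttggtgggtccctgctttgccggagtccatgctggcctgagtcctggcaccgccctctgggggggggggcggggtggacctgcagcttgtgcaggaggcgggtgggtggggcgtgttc
Acadvl, minus strand, chr11:70015429-70015678: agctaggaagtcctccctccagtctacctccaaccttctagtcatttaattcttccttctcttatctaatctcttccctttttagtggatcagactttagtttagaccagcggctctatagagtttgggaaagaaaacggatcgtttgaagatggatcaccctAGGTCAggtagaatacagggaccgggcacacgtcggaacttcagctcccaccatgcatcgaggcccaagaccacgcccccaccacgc
Acadm, minus strand, chr3:153944644-153944893: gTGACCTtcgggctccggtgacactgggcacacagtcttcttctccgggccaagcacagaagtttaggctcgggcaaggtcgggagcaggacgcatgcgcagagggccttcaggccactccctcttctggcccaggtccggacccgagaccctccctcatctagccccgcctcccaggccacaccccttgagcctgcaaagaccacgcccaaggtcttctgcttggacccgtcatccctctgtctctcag
Ucp3, plus strand, chr7:100472741-100472989: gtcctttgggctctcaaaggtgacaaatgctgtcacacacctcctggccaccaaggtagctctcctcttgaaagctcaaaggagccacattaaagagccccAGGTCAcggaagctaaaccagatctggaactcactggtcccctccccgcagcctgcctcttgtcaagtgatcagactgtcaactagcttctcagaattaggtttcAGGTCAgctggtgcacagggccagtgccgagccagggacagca
Acadvl and Acadm each held 1 hexamer, starting 87 and 249 bases before the start site, and Ucp3 held 2. Of the members, 32 had a promoter in the RefSeq table, 37 promoters in all. The hexamer lay within 250 bases upstream, on either strand, in 8 of these promoters (Acadm, Acadvl, Cd36, Cpt1a, Echs1, Plin2, Plin5 and Ucp3) and in 14% of all 32851 promoters of the table. A direct repeat with 1 base between, AGGTCANAGGTCA, lay in 0.0335% of all promoters, and the extended form TCAAGGTCA, which contains the hexamer, in 0.387%; neither was found in a member promoter. A match is a string of letters and not a bound site. Hadha and Hadhb, which encode both subunits of the trifunctional protein, start head to head on chromosome 5, with 272 bases between their RefSeq start sites.

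Between 23702836 and 32412022 reads on genes per library were recovered from the table. Mitochondrial transcripts took 6.36% of the reads of WT sham 1 and 9.76% to 12.5% in the other 11 mice, and WT sham 1 had the highest value of its group for 32 of the 43 members (53.5% of all genes tested). WT TAC 9 had the highest WT TAC value for 32 members and the highest for 22.1% of all genes. KI TAC 5 had the lowest KI TAC value for 39 members and for 54.9% of all genes. The members' share of the summed RPKM ranged from 1.60% to 2.06% in WT sham, 1.16% to 1.60% in WT TAC, 1.51% to 1.97% in KI sham and 1.46% to 2.12% in KI TAC hearts. RNA came from heart tissue of many cell types, in which fewer cells of a type and less RNA per cell cannot be told apart. With 3 mice in each group, an exact permutation test of a single gene cannot go below p = 0.1, so calls come from limma, fitted to all genes at once and called at an adjusted p under 0.05. The 4 comparisons of groups share mice with one another. Fold changes are log2 differences of RPKM + 1, given with their standard error (SE) and n = 3 mice in each group. Gene positions are those of GENCODE M21 on GRCm38.

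**Figure D1:**
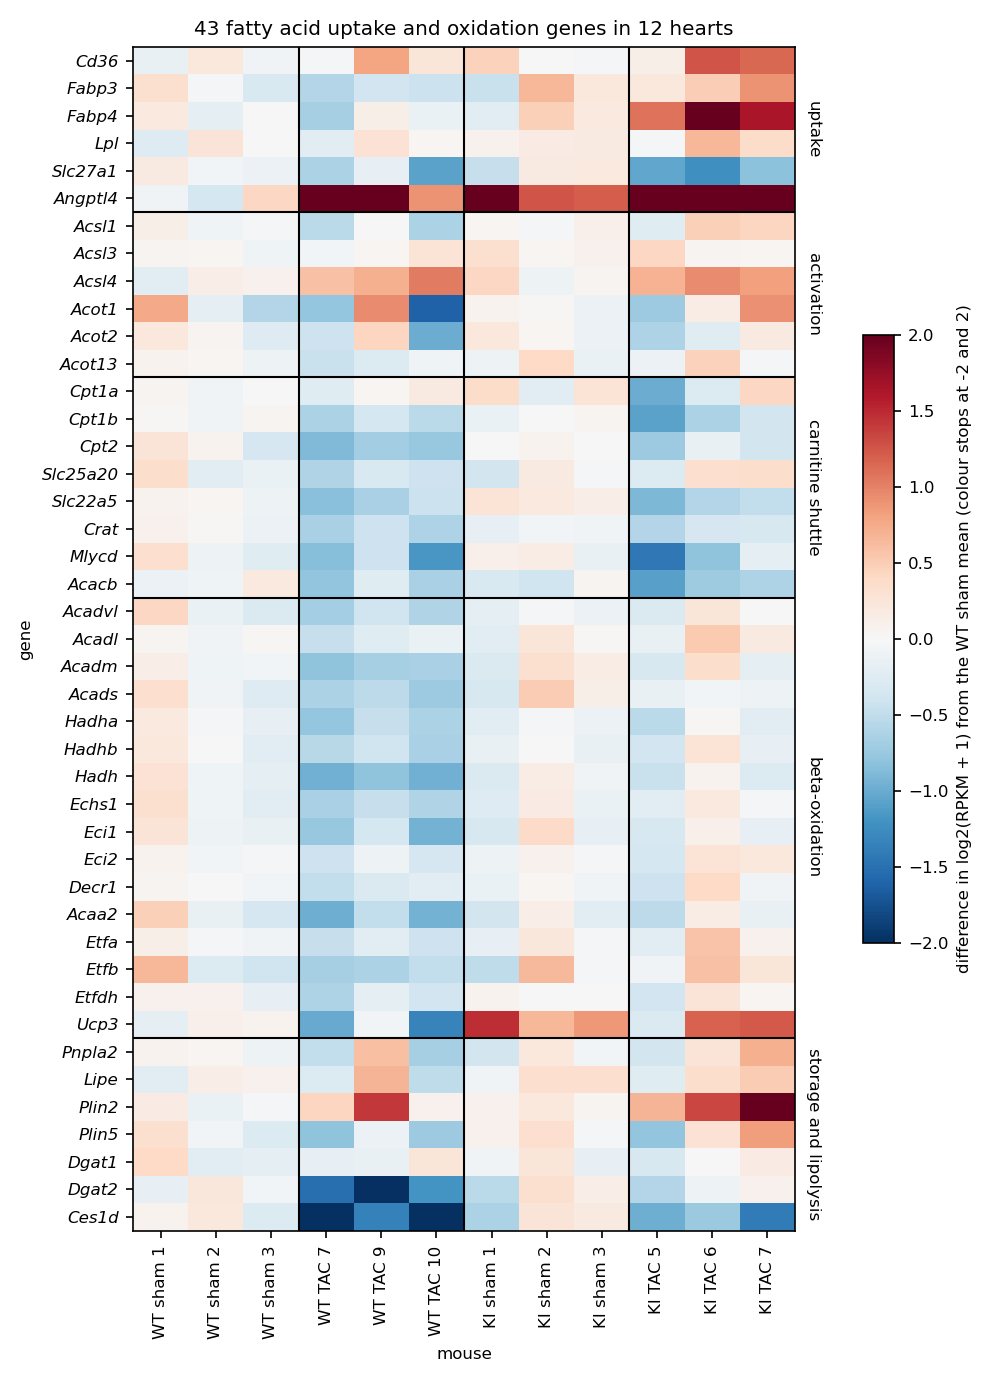
Heat map of the 43 members (rows, by step) in the 12 mice (columns, by group); colour is the difference in log2(RPKM + 1) from the mean of the 3 WT sham hearts, and stops at -2 and 2. The block of 15 beta-oxidation genes above Ucp3 is blue in all 3 WT TAC hearts, while in KI TAC hearts blue is steadiest in the carnitine shuttle rows.

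In WT hearts, 26 of the 42 members tested, of the uptake, carnitine, beta-oxidation and storage steps, were lower in every WT TAC mouse than in any WT sham mouse, against 15.0% of all genes tested, and 2 were higher without overlap, against 20.0%. By the test across all genes, 6 members fell (Ces1d, Dgat2, Hadh, Cpt2, Slc22a5 and Crat), against 4.60% of all genes, and 2 rose (Angptl4 and Acsl4), against 6.96%. The median log2 fold change was -0.50 over the members and 0.035 over all genes. In KI hearts, TAC left the members spread to both sides. Here 4 rose (Angptl4, Fabp4, Plin2 and Acsl4), against 8.57% of all genes, and 5 fell (Slc22a5, Slc27a1, Cpt1b, Ces1d and Mlycd), against 14.7%. Without overlap, 4 members were higher (13.6% of all genes) and 8 lower (24.7%), and the median was -0.0066 over the members and -0.10 over all genes.

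Between KI TAC and WT TAC hearts, 5 of the 42 members were called higher (Fabp4, Dgat2, Ucp3, Fabp3 and Hadh), against 2.92% of all genes, and 0 lower, against 8.13%. Without overlap, 13 were higher (10.1% of all genes) and 0 lower (19.4%), and the median was 0.48 over the members and -0.12 over all genes, with 36 estimates above 0 (37.4% of all genes) and 6 below (62.6%). Without KI TAC 6 the members' median was 0.30. No member passed the test of the difference between the genotypes' responses to TAC, nor did any other gene (0 percent called). With 1 mouse left out, that test called 62 genes higher and 178 lower without WT TAC 9, 34 and 148 without KI TAC 7, 2 and 6 without WT TAC 10, and 0 without any 1 of the other 9 mice. At an unadjusted p under 0.05, limma's interaction term was positive for 6 members (Fabp4, Dgat2, Hadh, Echs1, Ces1d and Fabp3) and negative for 0, beside 434 and 1234 of all genes, and limma-voom on the recovered reads called 0 genes. The interaction was positive in sign for 33 members (36.6% of all genes) and negative for 9 (63.4%), with a median of 0.45 (all genes -0.13). Without KI TAC 6 the members' interaction median was 0.27.

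**Figure D2:**
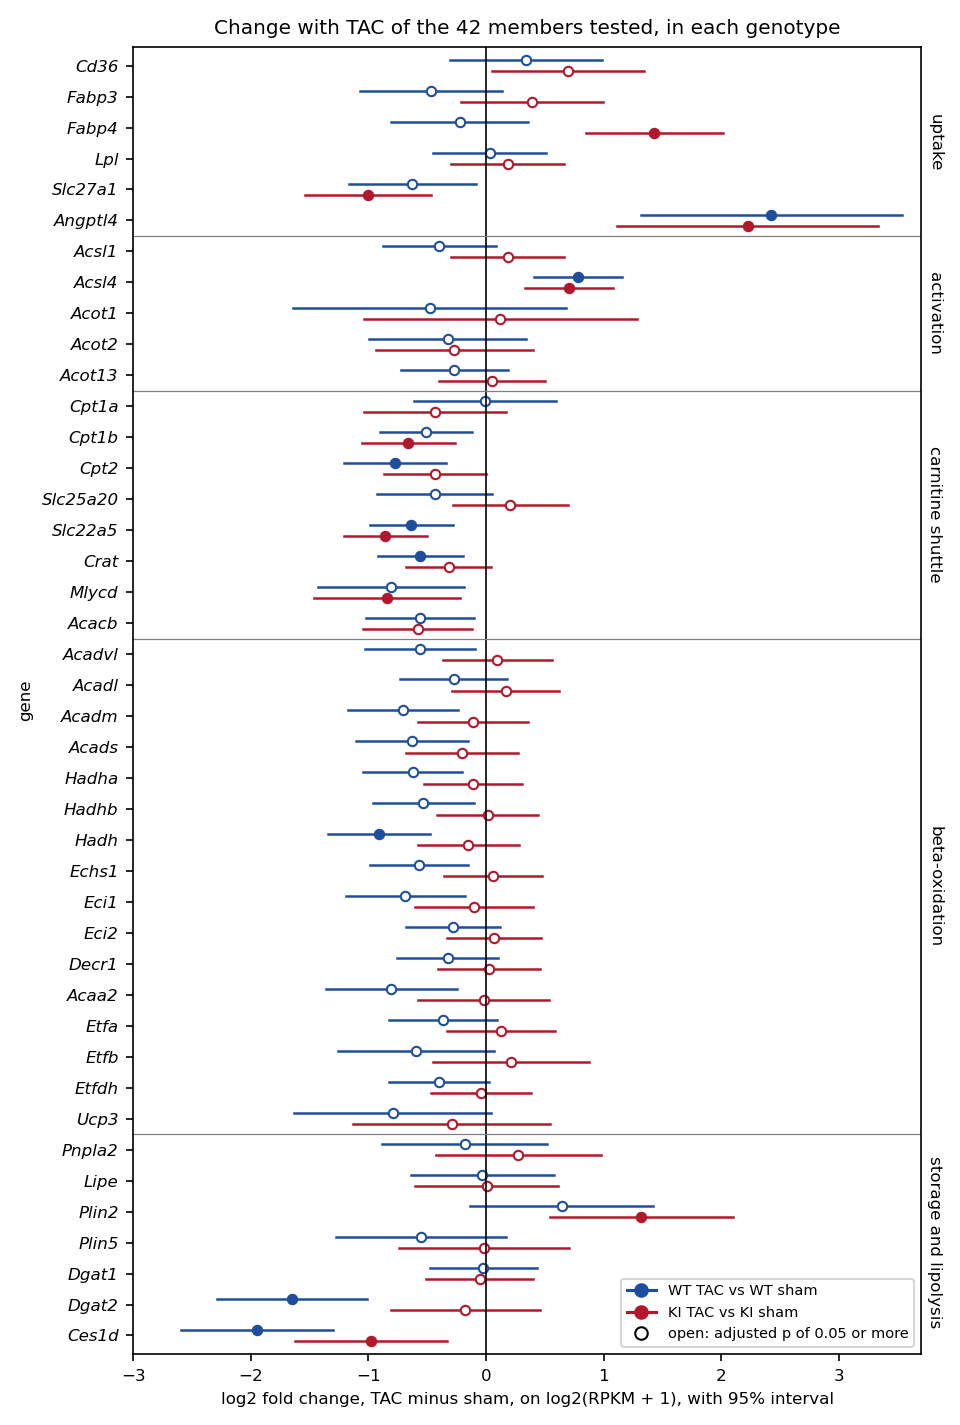
Log2 fold change between TAC and sham on log2(RPKM + 1), with its 95% interval, for the 42 members tested, in WT (blue) and KI (red) hearts; filled points passed the adjusted p of 0.05. All 16 beta-oxidation estimates lie below 0 in WT hearts and lie on both sides of 0 in KI hearts, while Slc22a5 and Ces1d lie below 0 in both.

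In uptake, 1 of 6 members rose with TAC in WT hearts (6.96% of all genes), and in KI hearts 2 rose (8.57%) and 1 fell (14.7%). Fabp4 (ENSMUSG00000062515, chr3:10204088-10208576), a fatty acid binding protein of capillary endothelium, adipocytes and macrophages, rose in KI TAC hearts. Its RPKM was 33.4, 25.0 and 28.9 in WT sham hearts, 18, 31.5 and 26.3 in WT TAC hearts, 24.5, 40.8 and 33.3 in KI sham hearts and 62.5, 121 and 91.7 in KI TAC hearts. Each KI TAC heart stood above each heart of the other groups, and WT TAC overlapped WT sham. The fold change was 1.43 ± 0.27 (SE), adjusted p = 0.00240 between KI TAC and KI sham, and 1.80 ± 0.27 (SE), adjusted p = 0.00461 between KI TAC and WT TAC (3.49-fold). In WT hearts it was -0.22 ± 0.27 (SE), adjusted p = 0.625. The interaction for Fabp4 was 1.65 ± 0.38 (SE), adjusted p = 0.105, and with WT TAC 9 left out it was the only member past the interaction's threshold, among the 62 genes called higher there.

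Angptl4 (ENSMUSG00000002289, chr17:33773750-33781830), a secreted inhibitor of lipoprotein lipase, rose with TAC in both genotypes. In RPKM it stood at 1.21, 0.824 and 2.09 in WT sham hearts, 12.1, 33.0 and 3.32 in WT TAC hearts, 8.26, 4.52 and 4.35 in KI sham hearts and 28.6, 33.1 and 26.7 in KI TAC hearts. TAC hearts stood above sham hearts without overlap in both genotypes. The WT TAC hearts spread widely, with mouse 10 below the KI sham range, and the KI sham hearts all stood above the WT sham hearts. The fold change was 2.42 ± 0.52 (SE), adjusted p = 0.00935 in WT and 2.22 ± 0.52 (SE), adjusted p = 0.00765 in KI hearts, and both calls were kept under each alternative tried. The WT value was 1.70 without WT TAC 9, 3.19 without WT TAC 10 and 3.11 by limma-voom. Between the sham groups the difference was 1.48 ± 0.52 (SE), adjusted p = 1.00.

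Fabp3 (ENSMUSG00000028773, chr4:130308595-130315463), the main cytosolic fatty acid binding protein of cardiomyocytes, was the member with the highest mean RPKM. Values were 1229.8, 973 and 802 in WT sham hearts, 658, 759 and 729 in WT TAC hearts, 720.3, 1571 and 1146 in KI sham hearts and 1147, 1393 and 1831 in KI TAC hearts. Every WT TAC heart was below every WT sham heart, and every KI TAC heart was above every WT TAC heart, while KI TAC overlapped KI sham. The difference between KI TAC and WT TAC was 1.00 ± 0.28 (SE), adjusted p = 0.0383, and neither the WT difference (-0.47 ± 0.28 (SE), adjusted p = 0.301) nor the KI difference (0.39 ± 0.28 (SE), adjusted p = 0.336) passed. This call missed the threshold under quantile normalization (adjusted p = 0.140), in a fit of the compared groups only (0.0507), and without WT TAC 7 (0.143), WT TAC 10 (0.0758), KI TAC 6 (0.113) or KI TAC 7 (0.0891). Fabp3 shares 24.3% of its windows of 75 bases with other genes, mostly the pseudogene Fabp3-ps1, so part of its reads could be split between them.

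Slc27a1 (ENSMUSG00000031808, chr8:71568882-71587302), fatty acid transport protein 1, fell in KI hearts. RPKM was 158, 135 and 128 in WT sham hearts, 89.8, 125 and 66.0 in WT TAC hearts, 102, 158 and 161 in KI sham hearts and 67.7, 59.0 and 78.8 in KI TAC hearts. TAC hearts were below sham hearts without overlap in both genotypes. For Slc27a1 the fold change was -1.0 ± 0.25 (SE), adjusted p = 0.0113 in KI hearts and -0.63 ± 0.25 (SE), adjusted p = 0.122 in WT hearts, and the KI call was lost without KI sham 3 (adjusted p = 0.0592). Cd36, the membrane transporter, and Lpl, lipoprotein lipase, passed no test with all mice, and Cd36 was called higher in KI hearts without KI TAC 5. Cd36 read 203, 355 and 242 RPKM in WT TAC and 222, 491 and 457 in KI TAC hearts, the latter 0.70 above KI sham on the log2 scale (adjusted p = 0.108). Lpl read 205, 293 and 246 in WT sham and 238, 388 and 318 in KI TAC hearts.

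**Figure D3:**
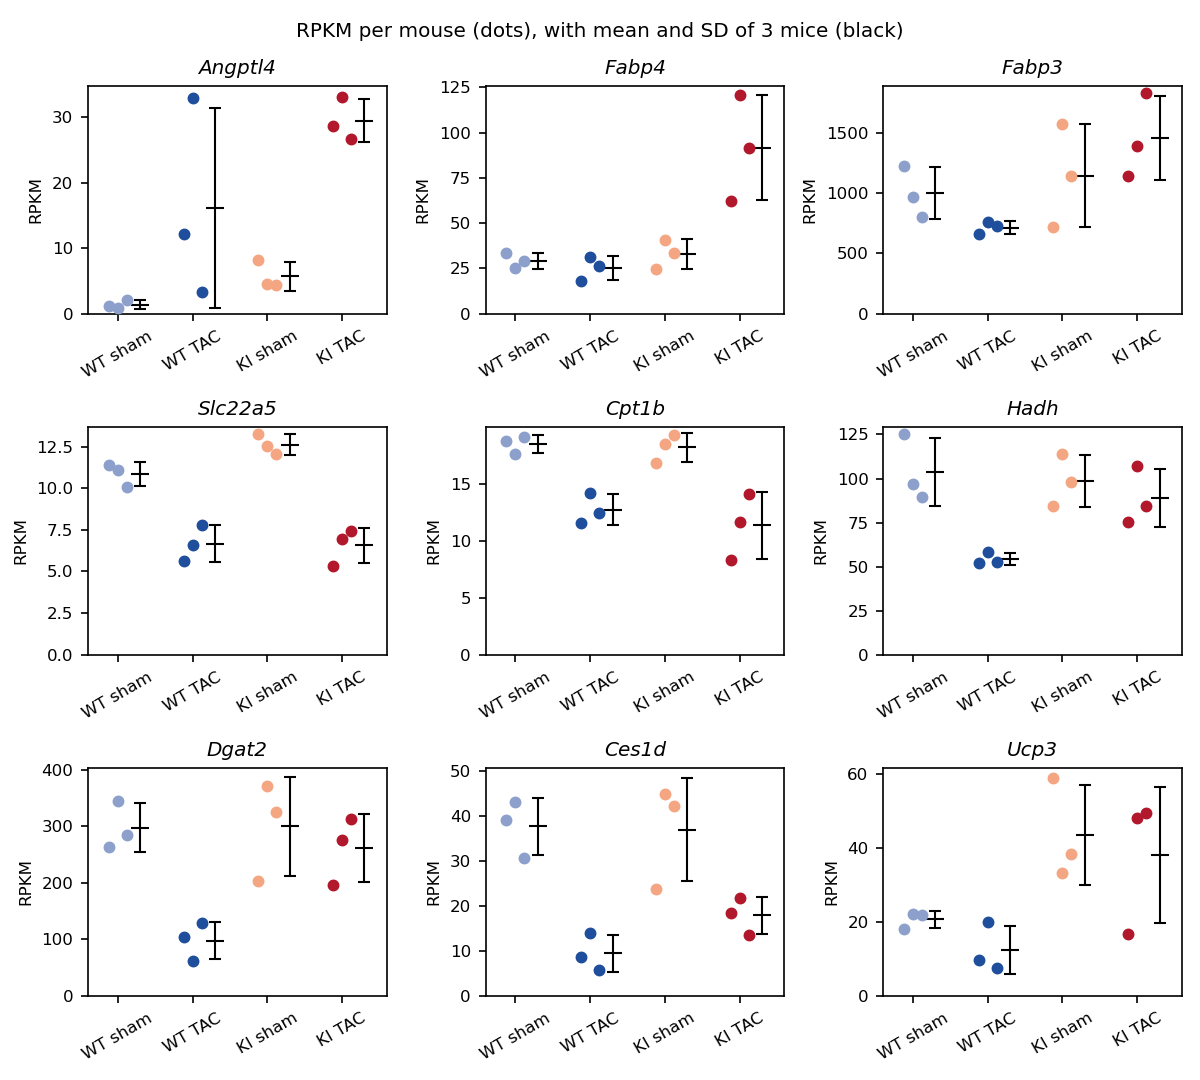
RPKM of 9 members in each mouse (coloured dots, by group), with mean and SD of the 3 mice in black; each axis starts at 0. Fabp4 stands high in KI TAC hearts alone, Slc22a5 and Cpt1b are low after TAC in both genotypes, and Hadh and Dgat2 are low in WT TAC hearts alone.

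In the activation step, 1 of the 5 members tested rose with TAC in each genotype, beside 6.96% of all genes in WT and 8.57% in KI hearts. None of the 5 fell, beside 4.60% and 14.7%. Acsl4 (ENSMUSG00000031278, chrX:142317993-142390535), an acyl-CoA synthetase that prefers arachidonate, had RPKM values of 1.16, 1.77 and 1.66 in WT sham hearts, 2.79, 3.11 and 4.15 in WT TAC hearts, 2.35, 1.34 and 1.61 in KI sham hearts and 3.07, 3.83 and 3.46 in KI TAC hearts. TAC hearts stood above sham hearts without overlap in both genotypes. For Acsl4 the fold change was 0.78 ± 0.17 (SE), adjusted p = 0.0119 in WT and 0.70 ± 0.17 (SE), adjusted p = 0.0109 in KI hearts, and both calls were kept under each alternative.

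Acot2 (ENSMUSG00000021226, chr12:83987861-83993873) and Acot13 (ENSMUSG00000006717, chr13:24817948-24831540), thioesterases that release CoA from acyl-CoA, had the highest mean RPKM of the step. Acot2 values were 135, 121 and 96.8 in WT sham hearts, 87.1, 157 and 58.1 in WT TAC hearts, 136, 119 and 107 in KI sham hearts and 75.2, 98.8 and 132 in KI TAC hearts. WT TAC 9 was the highest and WT TAC 10 the lowest of the 12 hearts, so WT TAC spanned the whole range. The TAC minus sham difference of Acot2 was -0.33 ± 0.31 (SE), adjusted p = 0.525 in WT and -0.27 ± 0.31 (SE), adjusted p = 0.559 in KI hearts. For Acot13, RPKM was 94.4, 92.4 and 84.5 in WT sham hearts, 65.9, 74.8 and 84.6 in WT TAC hearts, 84.5, 119.6 and 82.0 in KI sham hearts and 83.4, 125 and 88.3 in KI TAC hearts, with WT TAC 7 and 9 below all other hearts and WT TAC 10 inside the range of the sham hearts. Its TAC minus sham difference was -0.27 ± 0.21 (SE), adjusted p = 0.428 in WT and 0.051 ± 0.21 (SE), adjusted p = 0.886 in KI hearts. Acot2 and its neighbour Acot1, a cytosolic thioesterase, share 21.2% and 15.0% of their windows, and Acot1 followed the same spread in WT TAC hearts, with 1.91, 8.54 and 0.615 RPKM. Acsl1, the main long-chain synthetase of heart, was 0.62 higher on the log2 scale in KI TAC hearts than in WT TAC (adjusted p = 0.0860). It was called higher there under median-ratio scaling and without WT TAC 9 or KI TAC 5.

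In the carnitine shuttle, most members read lower after TAC in both genotypes. Of its 8 members, 7 were lower without overlap in WT TAC hearts (15.0% of all genes) and 3 of them fell (Slc22a5, Cpt2 and Crat; 4.60% of all genes). In KI TAC hearts 6 were lower without overlap (24.7% of all genes) and 3 of them fell (Slc22a5, Cpt1b and Mlycd; 14.7%). The step's median was -0.56 for WT and -0.51 for KI hearts, and -0.0088 between KI TAC and WT TAC, where no member of the step was called.

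Slc22a5 (ENSMUSG00000018900, chr11:53864542-53891660), the plasma membrane carnitine transporter OCTN2 whose upstream sequence is shown above, fell in both genotypes. RPKM was 11.4, 11.1 and 10.1 in WT sham hearts, 5.61, 6.58 and 7.80 in WT TAC hearts, 13.3, 12.5 and 12 in KI sham hearts and 5.35, 6.93 and 7.40 in KI TAC hearts. Every TAC heart was below every sham heart. For Slc22a5 the fold change was -0.86 ± 0.16 (SE), adjusted p = 0.00251 in KI and -0.64 ± 0.16 (SE), adjusted p = 0.0229 in WT hearts, and both passed. The WT call was lost without WT sham 1 (adjusted p = 0.0687), WT sham 2 (0.0815), WT sham 3 (0.0557), WT TAC 7 (0.121) or WT TAC 9 (0.0572). Slc22a5 shares 17.1% of its windows with other genes, mostly Slc22a21, which reached at most 0.555 RPKM in any heart.

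Cpt1b (ENSMUSG00000078937, chr15:89416405-89425863), the muscle form of carnitine palmitoyltransferase 1, makes acylcarnitine at the outer mitochondrial membrane and is the enzyme that malonyl-CoA inhibits. RPKM was 18.7, 17.6 and 19.1 in WT sham hearts, 11.5, 14.2 and 12.4 in WT TAC hearts, 16.8, 18.5 and 19.2 in KI sham hearts and 8.27, 11.6 and 14.1 in KI TAC hearts. TAC hearts were below sham hearts without overlap in both genotypes. For Cpt1b the fold change was -0.66 ± 0.18 (SE), adjusted p = 0.0197 in KI and -0.51 ± 0.18 (SE), adjusted p = 0.0875 in WT hearts. The KI call was lost in a fit of the compared groups only (adjusted p = 0.0560) and without KI sham 3 (0.0791) or KI TAC 5 (0.0768). Cpt1b shares 77.1% of its windows with Gm44502, an overlapping gene of the same strand, so its level is uncertain where the counting could not assign shared reads.

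Cpt2 (ENSMUSG00000028607, chr4:107903981-107923610), which returns the acyl group to CoA inside the mitochondrion, had RPKM values of 105, 92.3 and 69.2 in WT sham hearts, 47.0, 54.0 and 51.6 in WT TAC hearts, 87.7, 92.5 and 86.7 in KI sham hearts and 52.4, 79.4 and 67.9 in KI TAC hearts. WT TAC was below WT sham, and KI TAC below KI sham, without overlap. The fold change was -0.78 ± 0.20 (SE), adjusted p = 0.0245 in WT and -0.43 ± 0.20 (SE), adjusted p = 0.137 in KI hearts. Crat (ENSMUSG00000026853, chr2:30400471-30415813), carnitine acetyltransferase, had RPKM values of 154, 147 and 133 in WT sham hearts, 92.0, 108 and 93.9 in WT TAC hearts, 129, 139.6 and 137 in KI sham hearts and 96.0, 114 and 116 in KI TAC hearts. Again both TAC groups lay below their sham groups. The fold change of Crat was -0.56 ± 0.17 (SE), adjusted p = 0.0466 in WT and -0.32 ± 0.17 (SE), adjusted p = 0.189 in KI hearts. The Cpt2 call was lost without WT sham 1 (adjusted p = 0.0917), WT sham 2 (0.0889) or WT TAC 7 (0.103). The Crat call was lost in a fit of the compared groups (0.0701) and without any 1 of WT sham 1 (0.119), 2 (0.130) and 3 (0.0860) and WT TAC 7 (0.168), 9 (0.0639) and 10 (0.0819).

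Mlycd and Acacb set the level of malonyl-CoA from opposite sides, and both read lower after TAC. Mlycd (ENSMUSG00000074064, chr8:119394878-119411102), malonyl-CoA decarboxylase, removes it. RPKM was 108, 79.2 and 71.5 in WT sham hearts, 46.4, 63.4 and 37.3 in WT TAC hearts, 90.6, 94.2 and 76.5 in KI sham hearts and 30.9, 48.1 and 74.0 in KI TAC hearts. TAC was below sham without overlap in both genotypes, with a fold change of -0.84 ± 0.29 (SE), adjusted p = 0.0496 in KI and -0.81 ± 0.29 (SE), adjusted p = 0.0848 in WT hearts. The KI call lay at the threshold and was lost under median-ratio scaling (adjusted p = 0.0712), with no filter (0.0522), in a fit of the compared groups (0.0647), and without KI sham 1 (0.107), 2 (0.118) or 3 (0.0854) or KI TAC 5 (0.196) or 6 (0.102). Acacb, acetyl-CoA carboxylase 2, which makes malonyl-CoA, read 113, 166 and 124 RPKM in WT TAC against 180.3, 185 and 225 in WT sham hearts, and 91.8, 119 and 128 in KI TAC against 158, 148 and 203 in KI sham hearts. Its differences, -0.56 in WT and -0.58 in KI hearts, did not pass (adjusted p = 0.108 and 0.0646). Cpt1a, the liver form, and Slc25a20, the carnitine-acylcarnitine carrier, passed no test with all mice and the values as deposited. Cpt1a was called lower in KI hearts without KI TAC 7, and Slc25a20 higher between KI TAC and WT TAC under median-ratio scaling. Slc25a20 was the member of this step that stood higher without overlap in KI TAC (29.7, 45.6 and 46.3 RPKM) than in WT TAC hearts (23.5, 29.1 and 26.7), a difference of 0.57 ± 0.23 (SE), adjusted p = 0.109.

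In beta-oxidation, 1 gene passed the test in WT hearts, although the groups did not overlap for any of the enzymes. All 15 enzymes and electron transfer flavoproteins of the step (the members other than Ucp3) were lower in every WT TAC heart than in any WT sham heart (15.0% of all genes), with a median log2 fold change of -0.57 and a range from -0.91 to -0.28, and 1 of them, Hadh, fell (4.60% of all genes). Without WT sham 1 the WT median of the 15 was -0.41, with all 15 estimates below 0. In KI hearts none of the 15 separated TAC from sham, 8 estimates lay above 0 and 7 below, and the median was 0.013, between -0.21 and 0.21. That balance rested on single mice. Without KI TAC 6 the KI median was -0.18, with 1 estimate above 0 and 14 below. Without KI TAC 5 it was 0.16, with 12 above and 3 below. Between KI TAC and WT TAC all 15 estimates were above 0, 9 did not overlap (10.1% of all genes) and 1, Hadh, was called (2.92%), with a median of 0.53. The 9 became 6 under quantile normalization (16.2% of all genes) and 14 under median-ratio scaling (17.7%), and the 15 without overlap in WT hearts became 14 under each. In order of mouse number, the mean log2 difference of the 15 genes from WT sham was -0.66, -0.41 and -0.58 in WT TAC hearts, and -0.32, 0.26 and -0.039 in KI TAC hearts, so KI TAC 5 lay close to the WT TAC range and the other KI TAC hearts above it. KI sham hearts stood at -0.23, 0.19 and -0.056.

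Hadh (ENSMUSG00000027984, chr3:131233419-131272101), the short-chain hydroxyacyl-CoA dehydrogenase whose upstream sequence holds no hexamer, was the member of the block with a call. RPKM was 126, 96.6 and 89.3 in WT sham hearts, 52.2, 58.4 and 52.4 in WT TAC hearts, 84.3, 114 and 97.9 in KI sham hearts and 75.3, 107 and 84.6 in KI TAC hearts. WT TAC hearts stood below all others, and KI TAC overlapped both sham groups. For Hadh the fold change was -0.91 ± 0.20 (SE), adjusted p = 0.0113 in WT and 0.69 ± 0.20 (SE), adjusted p = 0.0434 between KI TAC and WT TAC, and both passed, while that in KI hearts (-0.15 ± 0.20 (SE), adjusted p = 0.619) did not. In WT hearts, quantile normalization also called Acadm, Acads, Echs1, Eci1 and Hadha lower, and median-ratio scaling Acadm, Acaa2, Echs1 and Hadha. Between KI TAC and WT TAC, median-ratio scaling also called Acadm, Acadvl, Echs1 and Etfb higher, and quantile normalization Echs1. Over all genes 643 and 523 were called higher there under these scalings, against 328. The WT call of Hadh was lost without WT TAC 7 (adjusted p = 0.0505). The call between genotypes was lost in a fit of the compared groups (0.0894) and without WT TAC 7 (0.154), 9 (0.0502) or 10 (0.0954) or KI TAC 6 (0.170).

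The acyl-CoA dehydrogenases Acadvl, Acadl, Acadm and Acads, ordered by falling chain length, take the first step of each round. Acadm, the medium-chain enzyme, read 190.2, 162 and 167 RPKM in WT sham, 98.8, 109 and 109.6 in WT TAC and 139, 221 and 151 in KI TAC hearts. WT TAC thus lay below both other groups without overlap, and the WT difference of -0.71 ± 0.22 (SE), adjusted p = 0.0513 did not pass, although it did under both other scalings, limma-voom and a fit of the compared groups. For Acadvl the difference was -0.56 ± 0.22 (SE), adjusted p = 0.111 in WT and 0.10 ± 0.22 (SE), adjusted p = 0.782 in KI hearts. For Acads it was -0.63 ± 0.22 (SE), adjusted p = 0.0824 and -0.21 ± 0.22 (SE), adjusted p = 0.534. The WT estimate of Acadl was the smallest in size of the 15, -0.28 (95% interval -0.73 to 0.18). Acadvl overlaps 1151 bases of the antisense gene Dvl2, whose reads cannot be told apart if strand was not used in counting.

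Hadha and Hadhb, the trifunctional protein that handles long chains, passed no test on the values as deposited. In WT hearts the differences were -0.62 ± 0.20 (SE), adjusted p = 0.0541 for Hadha and -0.53 ± 0.20 (SE), adjusted p = 0.103 for Hadhb, and in KI hearts -0.11 and 0.013. Hadhb shares 16.7% of its windows with other genes, mostly Gm13910. Acaa2, a thiolase of the step, had the highest mean RPKM of the block, 747, 486 and 424 in WT sham and 273, 379.5 and 278 in WT TAC hearts, and its WT difference was -0.80 ± 0.26 (SE), adjusted p = 0.0604. For Echs1, the short-chain hydratase, the WT difference was -0.57 ± 0.19 (SE), adjusted p = 0.0723 and the interaction 0.63 ± 0.27 (SE), adjusted p = 0.311. Eci1 and Eci2, isomerases for unsaturated chains, and Decr1, a dienoyl-CoA reductase, differed in size, with WT differences of -0.69, -0.28 and -0.33, none of which passed. Etfa, Etfb and Etfdh pass the electrons on to ubiquinone, and their WT differences of -0.37, -0.60 and -0.40 did not pass either. Etfb shares 39.6% of its windows with the overlapping gene Gm45233, and WT sham 1 and KI sham 2 were its highest sham hearts (43.2, 22.1 and 20.3 RPKM in WT sham, 18.7, 42.8 and 26.6 in KI sham).

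Ucp3 (ENSMUSG00000032942, chr7:100472990-100486432), a carrier of the inner mitochondrial membrane in the uncoupling protein family, was higher in KI than in WT hearts after TAC. RPKM was 18.1, 22.1 and 21.7 in WT sham hearts, 9.77, 19.8 and 7.55 in WT TAC hearts, 58.9, 33.2 and 38.2 in KI sham hearts and 16.7, 48.0 and 49.2 in KI TAC hearts. KI sham lay above WT sham without overlap, and in KI TAC mouse 5 was apart from the other hearts of its group, within the WT TAC range. The difference was 1.5 ± 0.39 (SE), adjusted p = 0.0287 between KI TAC and WT TAC (2.83-fold) and 1.00 ± 0.39 (SE), adjusted p = 1.00 between the sham groups. The first of these was lost in a fit of the compared groups (adjusted p = 0.0937) and without WT TAC 7 (0.118) or 10 (0.0901) or KI TAC 6 (0.127) or 7 (0.0657).

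In storage and lipolysis, 2 of 7 members fell in WT hearts (4.60% of all genes). In KI hearts 1 fell (14.7%) and 1 rose (8.57%), which is near the share over all genes. Ces1d (ENSMUSG00000056973, chr8:93166068-93197838), a carboxylesterase with triglyceride hydrolase activity, had RPKM values of 39.0, 43.1 and 30.6 in WT sham hearts, 8.65, 13.9 and 5.74 in WT TAC hearts, 23.7, 44.8 and 42.2 in KI sham hearts and 18.4, 21.7 and 13.5 in KI TAC hearts. TAC lay below sham without overlap in both genotypes. For Ces1d the fold change was -1.95 ± 0.30 (SE), adjusted p = 0.00149 in WT hearts, the lowest of the 42 members there, and -0.98 ± 0.30 (SE), adjusted p = 0.0315 in KI hearts. The WT call was kept under each alternative. The KI call was lost under quantile normalization (adjusted p = 0.0602), median-ratio scaling (0.0847), and without KI sham 2 (0.107) or 3 (0.118) or KI TAC 5 (0.0650) or 7 (0.0973).

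Dgat2 (ENSMUSG00000030747, chr7:99153658-99182719), which adds the last acyl group in triglyceride synthesis, fell in WT hearts. RPKM was 263, 346 and 285 in WT sham hearts, 103, 62.1 and 128 in WT TAC hearts, 203, 372 and 325 in KI sham hearts and 196, 276 and 314 in KI TAC hearts. WT TAC hearts lay below all other hearts, and KI TAC overlapped KI sham. The difference was -1.65 ± 0.30 (SE), adjusted p = 0.00367 in WT and -0.18 ± 0.30 (SE), adjusted p = 0.702 in KI hearts, and KI TAC exceeded WT TAC by 1.45 ± 0.30 (SE), adjusted p = 0.0119 (2.73-fold). The last call was lost without KI TAC 6 (adjusted p = 0.0573). The interaction for Dgat2 was 1.47 ± 0.42 (SE), adjusted p = 0.162. Its isoenzyme Dgat1 passed no test, at 8.77, 8.96 and 12 RPKM in WT TAC and 7.80, 10.0 and 11.4 in KI TAC hearts.

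Plin2 (ENSMUSG00000028494, chr4:86648386-86670060), a coat protein of lipid droplets, rose in KI hearts. RPKM was 14.5, 11.6 and 12.7 in WT sham hearts, 17.7, 36.0 and 13.7 in WT TAC hearts, 13.8, 15.1 and 13.4 in KI sham hearts and 21.2, 34.2 and 67.2 in KI TAC hearts. KI TAC lay above KI sham without overlap, with mouse 7 the highest, and WT TAC 9 stood apart from the other WT TAC hearts. For Plin2 the fold change was 1.32 ± 0.36 (SE), adjusted p = 0.0190 in KI hearts and 0.64 ± 0.36 (SE), adjusted p = 0.267 in WT hearts, where it did not pass. The KI call was lost without KI sham 3 (adjusted p = 0.0626) or KI TAC 7 (0.0633). Plin5, the coat protein of oxidative tissues, and the lipases Pnpla2 and Lipe passed no test with all mice, and Plin5 was called higher between KI TAC and WT TAC without KI TAC 5. In WT TAC hearts, Pnpla2, adipose triglyceride lipase, read 190.4, 406 and 168 RPKM and Lipe, hormone-sensitive lipase, read 9.46, 19.2 and 7.84, with WT TAC 9 highest for both.

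**Figure D4:**
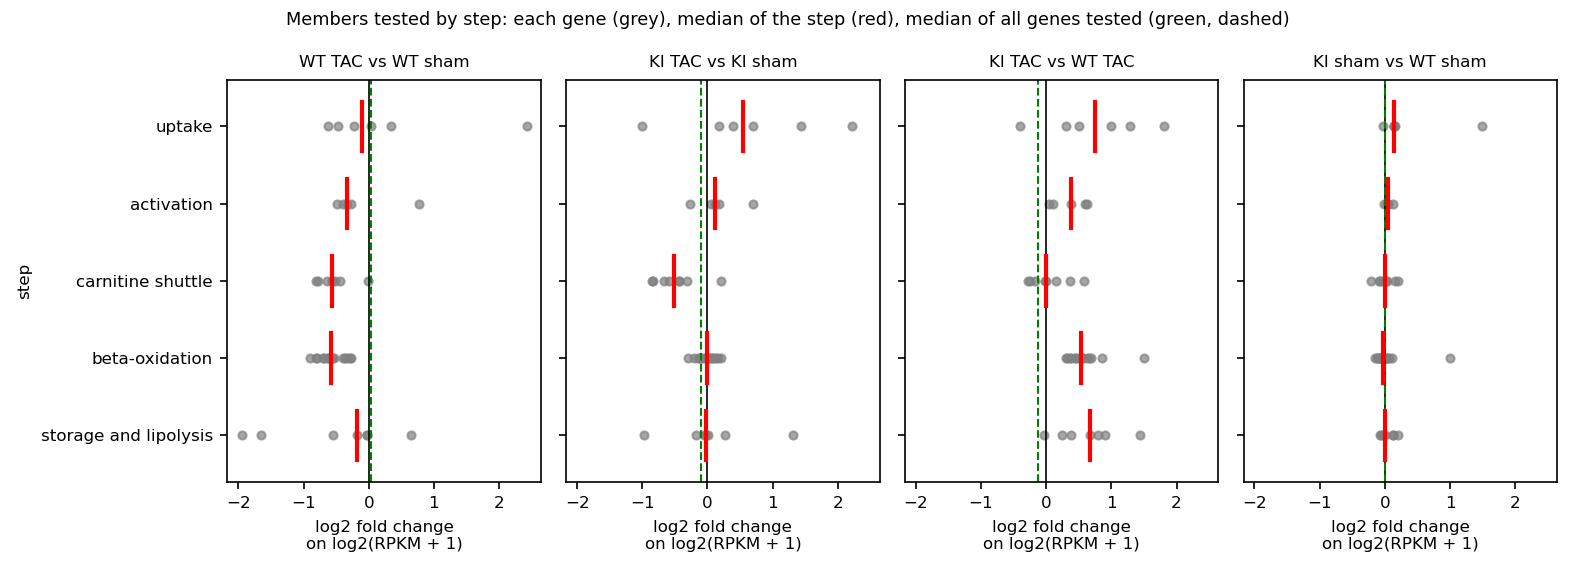
Log2 fold changes on log2(RPKM + 1) of the 42 members tested, by step, in the 4 comparisons of groups: grey points are genes, red bars the median of the step and the green dashed line the median of all genes tested. Between WT TAC and WT sham the carnitine and beta-oxidation medians lie at -0.56 and -0.58 (all 16 genes), between KI TAC and KI sham at -0.51 and -0.0037.

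Between the sham groups no member was called, beside 0.0178% of all genes. The median of the members was 0.019, and their estimates ranged from -0.22 to 1.48. Angptl4, Slc22a5 and Ucp3 were higher in every KI sham than in any WT sham heart (3 of 42, against 2.08% of all genes), and limma gave 2 of them, Angptl4 and Ucp3, an unadjusted p under 0.05, beside 20 higher (0.178%) and 17 lower (0.151%) of all genes. limma-voom on the recovered reads also called 0 members there. For the 15 beta-oxidation genes the sham difference ranged from -0.15 to 0.10. The 95% interval for Hadh was -0.50 to 0.36, and for Dgat2 -0.66 to 0.61, and differences of any size within those bounds are not excluded.

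Values were used as deposited, and another scaling between libraries moved the whole table. Median-ratio scaling moved the median of all genes from -0.10 to 0.0030 between KI TAC and KI sham, from -0.12 to -0.00074 between KI TAC and WT TAC, and from -0.13 to -0.0018 in the interaction. The members' median minus that of all genes was -0.53 in WT hearts, 0.096 in KI hearts and 0.60 between KI TAC and WT TAC as deposited. After median-ratio scaling it was -0.53, 0.12 and 0.64, and after quantile normalization -0.46, -0.0091 and 0.34. With median-ratio scaling, calls over all genes went from 328 higher and 914 lower to 643 and 604 between KI TAC and WT TAC, and from 963 and 1657 to 1436 and 1350 in KI hearts. In WT hearts they went from 782 and 517 to 750 and 719. The direction of the beta-oxidation block in KI hearts depended on the scaling: 8 of the 15 estimates were above 0 as deposited, 13 after median-ratio scaling and 5 after quantile normalization, while in WT hearts all 15 were below 0, and between KI TAC and WT TAC all 15 above, in each of the 3. Counts without overlap in WT hearts were 26 lower as deposited (15.0% of all genes), 25 after median-ratio scaling (19.0%) and 24 after quantile normalization (20.2%).

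Counts of calls rested on few mice. The 6 members that fell in WT hearts became 3 without WT sham 1, 3 without WT sham 2 and 2 without WT TAC 7, while calls lower over all genes went from 517 to 287, 255 and 203. The 5 that fell in KI hearts became 3 without KI sham 2, 1 without KI sham 3 and 2 without KI TAC 5, while those over all genes went from 1657 to 1245, 865 and 1024. The 5 higher in KI TAC hearts than in WT TAC became 2 without WT TAC 7, 2 without WT TAC 10, 1 without KI TAC 6, and 8 without WT TAC 9, while calls higher over all genes went from 328 to 49, 173, 61 and 362.

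Of 109 other genes of the same pathways, 102 had a row and 99 were tested. In WT hearts 2 rose and 9 fell, beside 6.96% and 4.60% of all genes. In KI hearts 8 rose and 25 fell, beside 8.57% and 14.7%, and between KI TAC and WT TAC 2 were higher and 7 lower, beside 2.92% and 8.13%. The medians were -0.28, -0.26 and -0.050. The counts that rose in KI hearts and that were lower in KI TAC hearts lay near the share over all genes. In uptake, Vldlr, a receptor for triglyceride-rich lipoproteins, fell in both genotypes (-0.81 ± 0.20 (SE), adjusted p = 0.0193 in WT and -0.98 ± 0.20 (SE), adjusted p = 0.00370 in KI hearts). Gpihbp1, which holds lipoprotein lipase on capillary endothelium, rose in KI hearts (1.09 ± 0.24 (SE), adjusted p = 0.00633) and was higher in KI TAC than WT TAC (1.78 ± 0.24 (SE), adjusted p = 0.00395). Slc27a3, of the fatty acid transport protein family, was lower in KI TAC hearts than in WT TAC (-0.93 ± 0.14 (SE), adjusted p = 0.00461).

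In activation, 1 of 8 other genes rose in each genotype (6.96% of all genes in WT, 8.57% in KI hearts) and it was Acot9, a mitochondrial thioesterase (0.86 ± 0.15 (SE), adjusted p = 0.00283 in WT, 1.12 ± 0.15 (SE), adjusted p = 0.000227 in KI hearts). In KI hearts 3 fell (14.7% of all genes), among them Acot11 (-1.12 ± 0.28 (SE), adjusted p = 0.0110) and Acsl6 (-0.70 ± 0.22 (SE), adjusted p = 0.0323). Among 5 other carnitine and malonyl-CoA genes tested, Slc25a29, a mitochondrial carrier of basic amino acids, fell in KI hearts (-1.39 ± 0.23 (SE), adjusted p = 0.00100). Of 12 other mitochondrial beta-oxidation genes, Acad10 and Acad11 fell in both genotypes, beside 4.60% of all genes in WT and 14.7% in KI hearts (Acad11: -0.93 ± 0.19 (SE), adjusted p = 0.00740 in WT, -0.78 ± 0.19 (SE), adjusted p = 0.0102 in KI hearts), and these 12 had a median of -0.51 (WT) and -0.14 (KI). Peroxisomal beta-oxidation had 0 calls among 14 genes in WT hearts, and 3 that fell in KI hearts (14.7% of all genes), among them Amacr, a racemase of branched-chain acyl-CoA (-0.86 ± 0.22 (SE), adjusted p = 0.0148), and Decr2, a peroxisomal dienoyl-CoA reductase (-0.95 ± 0.27 (SE), adjusted p = 0.0230).

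Of 20 other genes of triglyceride synthesis, droplets and lipolysis, 2 fell in WT hearts (4.60% of all genes), and in KI hearts 4 fell (14.7%) and 2 rose (8.57%), near the share over all genes. Gpam, the mitochondrial acyltransferase that starts glycerolipid synthesis, fell in KI hearts (-1.19 ± 0.24 (SE), adjusted p = 0.00339), as did Fitm2, which helps droplets form (-0.99 ± 0.21 (SE), adjusted p = 0.00458). Hilpda, an inhibitor of adipose triglyceride lipase, rose there (1.04 ± 0.21 (SE), adjusted p = 0.00388). Among 12 genes of fatty acid synthesis and elongation, Elovl1 rose in both genotypes (0.69 ± 0.15 (SE), adjusted p = 0.0111 in WT, 0.61 ± 0.15 (SE), adjusted p = 0.0107 in KI hearts), and Fasn, fatty acid synthase, fell in KI hearts (-0.67 ± 0.19 (SE), adjusted p = 0.0226). Scd2 was lower in KI TAC hearts than in WT TAC (-1.56 ± 0.36 (SE), adjusted p = 0.0202). No gene of ketone body use was called among 5.

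Of the 14 transcriptional regulators of the pathway, 3 fell (4.60% of all genes) and 0 rose (6.96%) in WT hearts, with a median of -0.44. In KI hearts 8 fell (14.7%) and 1 rose (8.57%), with a median of -0.86. Between KI TAC and WT TAC 1 was lower (Ppargc1b, against 8.13% of all genes) and 0 higher (2.92%). The interaction called 0 of the 14, with a median of -0.30 (all genes -0.13), so a difference between the genotypes' responses was not shown for these genes. Genes called lower were also more frequent in KI hearts over the whole table, at 14.7% against 4.60% in WT hearts. Ppara, the PPAR isoform of oxidative tissues, stood at 24.9 ± 5.89 RPKM (SD, n = 3) in KI sham and 8.02 ± 1.12 in KI TAC hearts (-1.50 ± 0.28 (SE), adjusted p = 0.00230), and at 32.1 ± 11.9 and 16.0 ± 4.17 in WT sham and WT TAC hearts (-0.91 ± 0.28 (SE), adjusted p = 0.0530). Rxra, its partner receptor, fell in both (-0.60 ± 0.17 (SE), adjusted p = 0.0335 in WT, -0.88 ± 0.17 (SE), adjusted p = 0.00235 in KI hearts). The coactivator Ppargc1a fell in KI hearts (-1.49 ± 0.32 (SE), adjusted p = 0.00518), and its difference in WT hearts, -0.68 ± 0.32 (SE), adjusted p = 0.190, did not pass.

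Marker genes of cell types moved with some of these groups. For 10 cardiomyocyte markers the mean log2(RPKM + 1) ranged from 9.38 to 9.53 in WT sham, 8.86 to 9.23 in WT TAC, 9.37 to 9.55 in KI sham and 9.12 to 9.60 in KI TAC hearts, so WT TAC lay below both sham groups on that scale. Their summed RPKM, which the most abundant markers dominate, overlapped, at 17377 to 22976 in WT sham, 14210.1 to 25012 in WT TAC, 18726 to 22338 in KI sham and 17528 to 24285 in KI TAC hearts. Of these markers 1 of 10 fell in WT hearts (Myh6, against 4.60% of all genes), with a median of -0.59. In KI hearts 1 of 10 fell (Pln, against 14.7%), with a median of -0.011. Between KI TAC and WT TAC 2 were higher (Myl2 and Tnni3, against 2.92% of all genes), with a median of 0.40. Macrophage and monocyte markers (7 with a row, summed RPKM) ranged from 66.1 to 111.9 in WT sham, 135.5 to 198.2 in WT TAC, 71.8 to 96.9 in KI sham and 78.1 to 104.9 in KI TAC hearts, and 5 of 6 tested rose in WT hearts (6.96% of all genes). In KI hearts 1 of the 6 rose (Itgam, against 8.57% of all genes) and 1 fell (Csf1r, against 14.7%). Between KI TAC and WT TAC, 3 of the 6 were lower (Adgre1, Fcgr1 and Csf1r; 8.13% of all genes). Neutrophil markers (3 with a row) summed to at most 1.27 RPKM in sham hearts and to between 3.69 and 20.3 in TAC hearts. The part of these shifts in the members' values was not tested.

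For Fabp4 and Gpihbp1 the endothelium and fat are further cell types to set beside them, and for Fabp4 also the macrophages, whose markers are given above. The 9 endothelial markers, Gpihbp1 among them, summed to 284 to 375 RPKM in WT TAC and 338 to 379 in KI TAC hearts, and Gpihbp1 was the only 1 of the 9 called in any comparison. None of 8 white adipocyte markers (such as Adipoq, Plin1 and Cidec) had a row in the table used here, nor did Ucp1. Of the brown adipocyte markers with a row, Cidea read 8.70, 16.9 and 22.7 RPKM in KI TAC and 10.3, 11.7 and 17.9 in WT TAC hearts, Dio2 reached at most 0.856 in any heart, and Cox7a1, which heart muscle also expresses, was 1.38 ± 0.32 (SE), adjusted p = 0.0208 higher in KI TAC hearts than in WT TAC. Fibroblast markers (7) summed to 158 to 663 RPKM in WT TAC and 125 to 208 in KI TAC hearts, smooth muscle and pericyte markers (6) to 207 to 281 and 160 to 227, and erythroid genes (5) to 74.8 to 114 and 97.7 to 257. Atrial markers (4) and skeletal muscle markers (7) had no row in the table used here.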

How the data were processed

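Poly(A)-selected RNA of 12 hearts was sequenced in strand-specific libraries, from 1 end, over 75 bases. Per the study's methods and the submitters' processing notes, the authors trimmed reads with Trimmomatic 0.39, mapped them to GRCm38 with HISAT2 2.2.1 and counted them on Ensembl genes with HTSeq 0.6.1. The strand setting of the counting is not given in the sources used here. The authors deposited RPKM values for 13552 genes, 13546 of them found in GENCODE M21. Multiplied by exon length, 96.3% to 98.3% of the low values of each mouse (up to 30 reads) were whole reads within a tolerance of 0.05, which gave the depth. Exon lengths join all transcripts of a gene, so levels compare between genes only roughly.

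Groups came from the labels for genotype and treatment. The main test was limma 3.58.1 under R 4.3.3, with its trended variance prior, on log2(RPKM + 1) of 11240 genes in all 4 groups together (at least 1 RPKM in at least 3 mice), with Benjamini-Hochberg adjustment over all of them and a threshold of 0.05. The fold change on this scale understates changes of low genes. Nothing in the labels pairs mice or names separate cages or batches, so no such term was fitted. The p-values set differences between groups against the spread between mice within groups, pooled over the 4 groups. A batch that went with a group could not be told apart from it. Alternatives were quantile normalization, median-ratio scaling, a pseudocount of 0.1, no filter, limma-voom on recovered reads, a fit of the compared groups only, and leaving out each mouse; counts without overlap under the other scalings were added after seeing the data. Read sharing was measured as the share of a gene's exon windows of 75 bases found in another gene's transcripts. Python 3.11.15, numpy 2.4.6, pandas 2.3.3 and matplotlib 3.10.9 were used.

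The members and gene lists were chosen with earlier results of these data known. Full values are given for at most 5 members of a step past the threshold in any of the 3 comparisons with TAC hearts, by smallest adjusted p, and, in a step with fewer than 2, for the 2 with the highest mean RPKM; other pathway genes are named for at most 3 called genes of a list. The values of 1 gene that the rule names are not reported here.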

Additional observations from a re-analysis of the deposited data

Results flagged for a closer look

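Fabp3, the cytosolic fatty acid binding protein of cardiomyocytes, was singled out because the genotypes moved apart: each of the 3 WT TAC hearts lay below the WT sham mean and each of the 3 KI TAC hearts above the KI sham mean. The difference between the responses was 0.86 on the log2 scale, with an interaction adjusted p of 0.335 by limma, so it did not pass. KI TAC 5 exceeded the KI sham mean by less than 1 RPKM (1146.56 against 1145.7), so the pattern in that mouse is no more than a tie. KI sham hearts spread from 720.3 to 1571 RPKM, a range that holds 2 of the 3 KI TAC values.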

How the results depend on the processing

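Of 22 calls of single members, none reversed under any alternative, and 9 were kept under all 12 alternatives each had. Over all 22, the threshold was missed in 11 of 132 values from other settings and 42 of 132 values with 1 mouse left out, as given beside each gene. Members that fell in WT hearts numbered 12 under quantile normalization, 11 under median-ratio scaling, and 2 to 5 with a mouse left out, against 6. Over all genes 809 and 719 fell under those scalings and 203 to 710 with a mouse left out, against 517. Members that fell in KI hearts numbered 3 under median-ratio scaling, 3 in a fit of the compared groups and 1 to 5 with a mouse left out, against 5. Over all genes 1350, 1492 and 865 to 1889 fell in these settings, against 1657. Members higher in KI TAC hearts than in WT TAC numbered 11 under median-ratio scaling, 2 in a fit of the compared groups and 1 to 8 with a mouse left out, against 5. Over all genes 643, 75 and 49 to 374 were called higher in these settings, against 328. Members higher without overlap there numbered 20 and 9 under median-ratio scaling and quantile normalization (17.7% and 16.2% of all genes), against 13 (10.1%). For the interaction, 0 to 1 members passed and its median ranged from 0.27 to 0.67 with a mouse left out, while 0 to 62 genes were called higher and 0 to 178 lower. In WT hearts the members' median lay between -0.60 and -0.35 with a mouse left out, and for KI TAC against WT TAC between 0.30 and 0.64. In KI hearts it lay between -0.15 and 0.16 with a mouse left out, so its sign is not settled. Over all genes, calls between KI TAC and WT TAC numbered 75 higher and 141 lower in a fit of the compared groups, against 328 and 914. The cause of these differences was not tested. With the mouse number as a replicate block, the 2 sham groups gave 0 calls and a median of 0.019, and mice of the same number did not deviate together (r of -0.225, -0.302 and 0.44), so the numbers were not taken as pairs. Each group had 3 mice, with 23702836 to 32412022 recovered reads per library. How far the spread between mice or the counting of reads set the width of the 95% intervals was not tested.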
